A study of Mus musculus with 4 samples.

Results

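The genes described here are 47 genes of the cell division cycle, of which 25 act in mitosis and the G2 phase before it, 16 in DNA replication and entry into S phase, and 6 are D-type cyclins and inhibitor genes that act in G1. They were chosen by name, as transcript clusters with exactly 1 gene symbol in the platform annotation, and a gene with several such clusters was represented by its brightest. Of the 47, 45 were measured among 22180 genes. The cyclin B1 gene Ccnb1 and the cyclin E2 gene Ccne2 had no such cluster and were not analysed here. RNA was measured on 4 expression arrays, 2 of CX3CR1low and 2 of CX3CR1bright macrophages from the dermis of ear skin. All mice were untreated adult C57Bl/6 animals of the genotype Cx3cr1+/gfp, in which GFP takes the place of 1 allele of the fractalkine receptor gene, so both subsets are heterozygous for Cx3cr1. They were kept without ear clipping in a pathogen-free facility. Each sample was sorted from digested skin pooled from 3 to 6 mice, and each subset was sampled from 2 independent litters. No single animal is resolved.

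A cell that divides passes from G1 into S phase, where it copies its DNA, and through G2 into mitosis. D-type and E-type cyclins with their kinases release E2F factors from the retinoblastoma proteins, and E2F factors switch on the genes of replication. Genes of mitosis are switched on later, by the MuvB, B-MYB and FOXM1 proteins, and their transcripts are low in resting cells. Tissue macrophages are mostly at rest, and in the skin they are kept up by local division and by monocytes from the blood. Transcripts of the cycle in a sorted sample may come from a few dividing cells. In these bulk samples, fewer cells of a type and less RNA per cell cannot be told apart.

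Values are log2 levels, and a level near the array median of 3.65 to 3.68 can be background. All 45 measured genes passed the filter for testing, which asked for at least 2 arrays above their own median. Of these, 40 lay above it on all 4 arrays. The exceptions were Cenpf, Bub1 and Cdc6, which were below the median on both CX3CR1low arrays, Nuf2, below it on 1 CX3CR1low array, and Ccne1, below it on both CX3CR1bright arrays. The macrophage markers Csf1r, Adgre1, Mertk, Fcgr1, Cd68, Mrc1, Cd14 and Itgam were all measured at 8.14 to 12.2 on every array. Over 13133 tested genes, which are not independent replicates, the CX3CR1low arrays correlated at 0.978 and the CX3CR1bright arrays at 0.9596. Arrays of different subsets correlated at 0.938 to 0.9599, so the CX3CR1bright arrays were no more alike than the closest such pair. CX3CR1bright replicate 2 carried the most keratinocyte transcripts, as given with the marker values.

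In CX3CR1bright macrophages the mitosis genes lay mostly higher, while the replication genes were split around 0. Of 24 measured mitosis genes, 21 had a positive difference (CX3CR1bright minus CX3CR1low) and the median was 0.44 on the log2 scale. Of 15 measured replication genes, 6 had a positive difference and the median was -0.053. Over all 22180 genes 46.1% were positive and the median was -0.032. No cell cycle gene passed an adjusted p of 0.05 (limma, lowest adjusted p = 0.0913), the threshold that 18 of 13133 genes or 0.137% passed. At an unadjusted p under 0.05 (limma) there were 15 cell cycle genes higher in CX3CR1bright cells, or 33.3% of 45, where 7.03% of all tested genes were, and 2 lower, or 4.44%, where 11.8% were. Whether a role group differs from another was not tested. By role the 15 were 9 mitosis genes, 3 replication genes and 3 of the G1 group, and the 2 were replication genes. Cenpf and Bub1 passed the filter through the CX3CR1bright arrays alone, and Ccne1 through the CX3CR1low arrays alone. Among the 40 genes above the median on all arrays, 12 were higher and 1 lower at that p, among them 6 of 21 mitosis genes higher (28.6%) and, of 13 replication genes, 3 higher and 1 lower. The counts of 15 and 2 depend on single arrays. With an array left out, where 1 subset rests on 1 array, they varied, as did the shares of all tested genes. The median difference was then 0.48 to 0.64 for the mitosis genes and -0.064 to 0.032 for the replication genes. Over all genes that median was -0.049 to -0.028.

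**Figure D1:**
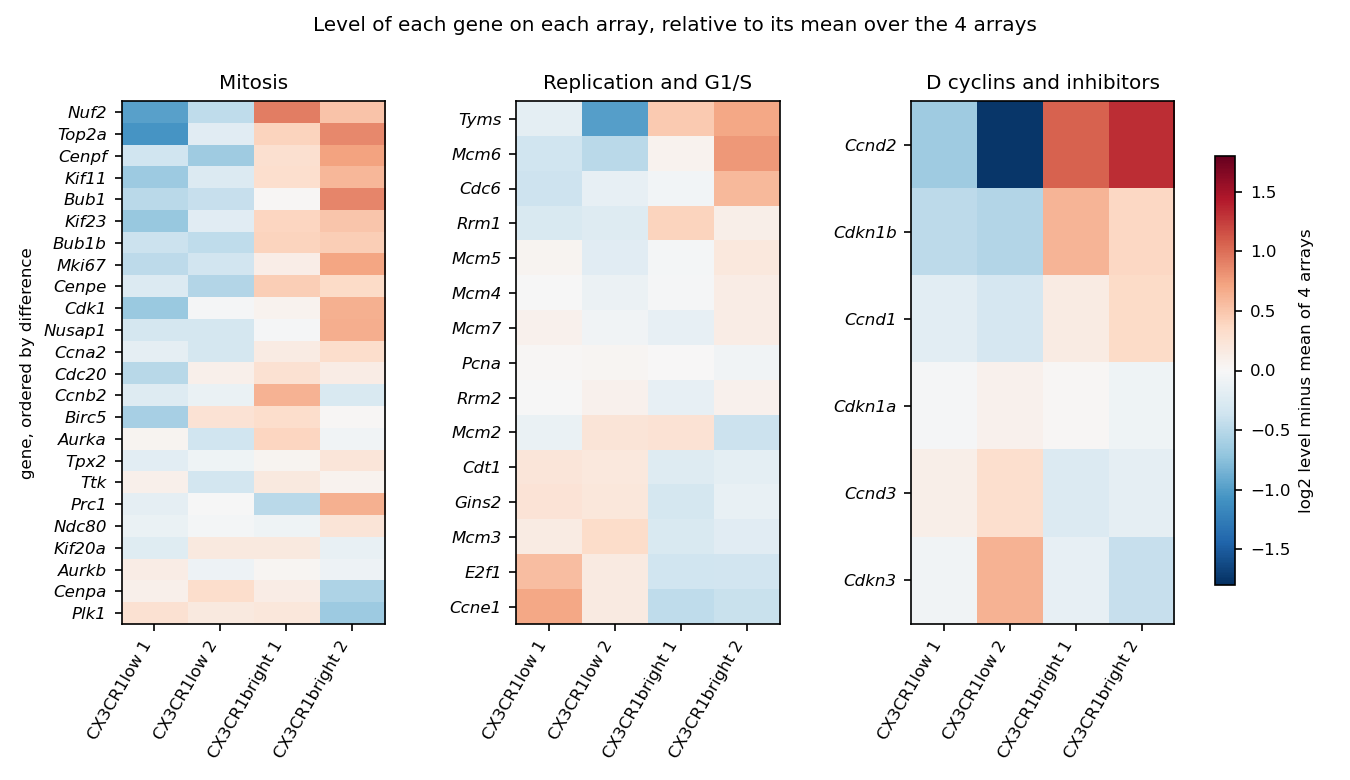
Heat maps of the 45 measured genes, with a row per gene and a column per array, in 3 panels for mitosis, replication with G1/S entry, and the D cyclins and inhibitors; colour gives the log2 level minus the gene's mean over the 4 arrays. In the mitosis panel the upper 13 genes are redder on both CX3CR1bright arrays, whereas the replication panel runs from red to blue down the list.

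By array, the mitosis genes reached their highest value on a CX3CR1bright array in 21 of 24 cases. CX3CR1bright replicate 2 was highest for 13 and CX3CR1bright replicate 1 for 8, CX3CR1low replicate 1 for 2 and CX3CR1low replicate 2 for 1. Over all tested genes the shares highest on these arrays, in that order, were 25.7%, 19.8%, 24.3% and 30.2%. The lowest value fell on CX3CR1low replicate 1 for 13 genes and on CX3CR1low replicate 2 for 7, where each held 20.1% of all tested genes. The replication genes had no such order: the highest array was CX3CR1low replicate 1 for 4, CX3CR1low replicate 2 for 3, CX3CR1bright replicate 1 for 2 and CX3CR1bright replicate 2 for 6. CX3CR1bright replicate 1 was the lowest array for 7 of the 15, and for 27.9% of all tested genes. Relative to each gene's CX3CR1low mean, the median of the mitosis genes was 0.48 on CX3CR1bright replicate 1 and 0.64 on CX3CR1bright replicate 2, and that of the replication genes was -0.016 and 0.032. Both CX3CR1bright arrays lay above both CX3CR1low arrays for 14 mitosis genes and below for 0, where 18.9% of tested genes lay above and 31.5% below. Of the replication genes 4 lay above and 6 below. The 14 include Cenpf and Bub1, the 4 include Cdc6 and the 6 include Ccne1, which passed the filter through 1 subset alone. Among genes above the median on all arrays, 52.4% of 21 mitosis genes lay above and 0% below. For 13 such replication genes the shares were 23.1% and 38.5%. The replication counts of 4 and 6 were 7 and 5 after quantile normalization and also after cyclic loess. The shares over all 22180 genes, 18.3% above and 25.5% below, moved too. They were 20.5% and 22.5% after quantile normalization and 21.9% and 21.3% after cyclic loess.

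Markers of several other skin cells were also higher in the CX3CR1bright samples. Of 10 keratinocyte markers 9 were measured, all with positive differences, with a summed level (log2 of the sum of linear levels) of 9.76 to 10.3 in CX3CR1low and 10.7 to 11.9 in CX3CR1bright samples. Relative to the CX3CR1low mean their median was 0.51 on CX3CR1bright replicate 1 and 2.49 on CX3CR1bright replicate 2. Without CX3CR1bright replicate 2 the median difference of the mitosis genes was 0.48, with 20 of 24 positive, and without CX3CR1bright replicate 1 it was 0.64. All 8 fibroblast markers had positive differences, with sums of 10.2 to 10.7 and 11.3 to 11.5 and medians of 1.01 and 1.03 on the CX3CR1bright arrays. Of 8 dendritic cell markers 7 were measured, 6 positive, with sums of 7.51 to 7.76 and 9.18 to 9.32. Of 6 Langerhans cell markers, some of which keratinocytes express too, 5 were measured, 5 positive, with sums of 9.59 to 9.63 and 10.5 to 11.2. Of 8 lymphocyte markers 7 were measured, 7 positive, with sums of 8.64 to 8.81 and 10.003 to 10.2. Most of that sum was Il7r, at 9.81 on both CX3CR1bright arrays. The T cell receptor gene Cd3d lay below the array median on all but CX3CR1bright replicate 1. Relative to the CX3CR1low mean the median of the lymphocyte markers was 1.25 on CX3CR1bright replicate 1 and 0.20 on CX3CR1bright replicate 2. Of these 7 markers, 5 overlapped between the subsets. The keratinocyte factor gene Trp63 lay below the array median on all but CX3CR1bright replicate 2. Endothelial, mast cell, neutrophil and melanocyte markers had positive differences for 3 of 6, 1 of 6, 3 of 5 and 3 of 5, and macrophage markers for 4 of 8. The part of these cells in the cell cycle values was not tested.

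**Figure D2:**
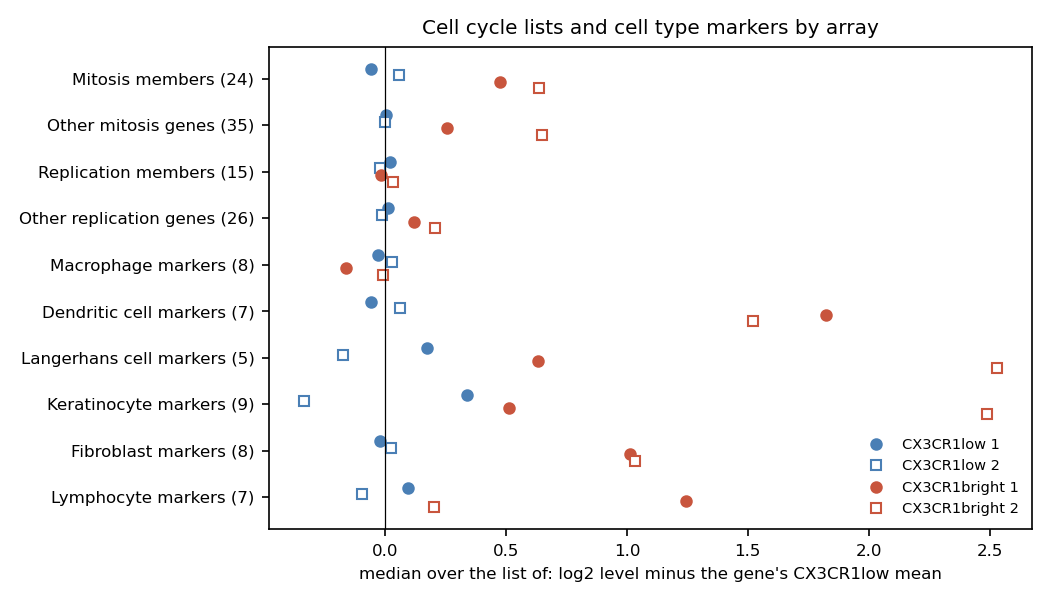
Median, over each list, of the log2 level minus the gene's CX3CR1low mean, with a point per array; the number of measured genes is in brackets, circles are replicate 1, open squares replicate 2, blue CX3CR1low and red CX3CR1bright. The mitosis genes lie at 0.48 and 0.64 on the CX3CR1bright arrays and the replication genes at -0.016 and 0.032, while keratinocyte markers lie at 0.51 and 2.49.

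The marker Mki67 encodes Ki-67, a protein that coats mitotic chromosomes and is made in cycling cells. Its levels were 8.96 and 9.09 on the CX3CR1low arrays and 9.55 and 10.15 on the CX3CR1bright arrays. The groups did not overlap, and Mki67 stood well above the array median in both subsets. The difference was 0.82 ± 0.26 (SE moderated by limma, n = 2 per subset), a fold of 1.77, with an adjusted p of 0.192 (limma). Without CX3CR1bright replicate 2 the difference of Mki67 was 0.52. Top2a encodes topoisomerase II alpha, which untangles the copied DNA. It stood at 4.12 and 4.97 in CX3CR1low and at 5.57 and 6.04 in CX3CR1bright macrophages. That difference was 1.26 ± 0.35, a fold of 2.39 (limma, adjusted p = 0.167), and the CX3CR1low replicates of Top2a were 0.86 apart. Without CX3CR1low replicate 1 it was 0.83.

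The upstream sequences of 3 mitosis genes and 1 replication gene were chosen, after their letters were seen, to show each motif that factors of the cycle are known to bind. Promoters of late cycle genes often carry a CHR element, TTTGAA, which MuvB complexes bind, and CCAAT boxes, bound by NF-Y, and promoters of replication genes carry E2F sites. The sequences are the 250 bases before the start in RefSeq, build GRCm38.p6, written 5′ to 3′ on the strand of the gene, with matches to any searched motif in capitals.
Top2a, chr11:99024190-99024439, minus strand: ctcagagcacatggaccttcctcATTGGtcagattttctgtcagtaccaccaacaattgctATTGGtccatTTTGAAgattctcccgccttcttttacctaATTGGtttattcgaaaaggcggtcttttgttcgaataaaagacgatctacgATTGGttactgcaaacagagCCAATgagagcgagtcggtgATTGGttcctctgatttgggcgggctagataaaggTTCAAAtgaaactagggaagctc
Mki67, chr7:135716380-135716629, minus strand: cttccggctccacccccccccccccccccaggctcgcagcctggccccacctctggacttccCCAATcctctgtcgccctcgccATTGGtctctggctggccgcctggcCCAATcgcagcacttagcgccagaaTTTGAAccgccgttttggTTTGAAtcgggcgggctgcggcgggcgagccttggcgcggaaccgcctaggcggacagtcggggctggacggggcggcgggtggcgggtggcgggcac
Kif11, chr19:37376132-37376381, plus strand: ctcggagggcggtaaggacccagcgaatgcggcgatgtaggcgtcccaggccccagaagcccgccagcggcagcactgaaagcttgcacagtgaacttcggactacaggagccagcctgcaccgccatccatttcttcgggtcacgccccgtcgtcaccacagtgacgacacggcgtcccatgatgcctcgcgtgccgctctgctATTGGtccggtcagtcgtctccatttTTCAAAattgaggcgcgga
Mcm6, chr1:128359706-128359955, minus strand: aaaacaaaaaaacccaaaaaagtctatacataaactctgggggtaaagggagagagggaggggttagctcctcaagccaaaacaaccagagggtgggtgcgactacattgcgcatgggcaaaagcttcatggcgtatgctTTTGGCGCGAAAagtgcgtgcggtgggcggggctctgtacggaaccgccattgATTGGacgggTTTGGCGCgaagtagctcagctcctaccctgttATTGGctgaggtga
Top2a holds 2 CHR matches and 6 CCAAT matches, Mki67 holds 2 and 3, and Kif11 holds 1 and 1. Mcm6 holds 2 CCAAT matches and 3 E2F matches, a pair of which overlap. The search was for TTTGAA, for CCAAT and, for E2F, for TTTGGCGC, TTTCGCGC or GGCGGGAA, on both strands, and these motifs may overlap. Of the 20 measured mitosis genes with an entry, 35% held a CHR match and 80% a CCAAT match, against 18.3% and 37.5% of all 27025 genes with an entry and 13.3% and 39.1% of the 10304 tested ones. Of the 13 replication genes with an entry, 7.69% held a CHR match and 61.5% a CCAAT match. The searched E2F letters were found for 5% of the mitosis genes, 23.1% of the replication genes, 2.85% of all genes and 5.01% of the tested ones. A gene with several starts was counted if any of its windows held the letters. Such a match describes the letters and is not a bound site, and Nuf2 and Tyms, both far apart between the subsets, held none of these letters in the window.

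Genes of the kinetochore, the protein plate that ties a chromosome to the spindle, had positive differences for 4 of 5. Nuf2, a subunit of the NDC80 complex, which grips microtubules, stood at 3.23 and 3.76 in CX3CR1low and at 5.14 and 4.73 in CX3CR1bright macrophages. With 1.44 ± 0.27, a fold of 2.72, it had the largest difference of the mitosis genes (limma, adjusted p = 0.103, or 0.0744 to 0.429 over 12 alternatives). The CX3CR1low levels were below the array median on replicate 1 and near it on replicate 2, so the fold can be limited by background. Its partner Ndc80 stood at 4.81 and 4.91 against 4.86 and 5.16, and those arrays overlapped, with a difference of 0.15 ± 0.20. Cenpf, which recruits motor proteins to the kinetochore, was at 3.21 and 2.93 in CX3CR1low, below the array median, and at 3.86 and 4.29 in CX3CR1bright cells. The difference of Cenpf was 1.01 ± 0.24 (limma, adjusted p = 0.136). Cenpe, a kinetochore motor, stood at 4.10 and 3.82 against 4.79 and 4.69, or 0.78 ± 0.20 (limma, adjusted p = 0.152). Cenpa, the histone variant that marks the centromere, went the other way. It was at 8.25 and 8.46 in CX3CR1low and at 8.29 and 7.60 in CX3CR1bright macrophages, which overlap, and differed by -0.41 ± 0.28. Without CX3CR1bright replicate 2 the difference of Cenpa was -0.066, and without CX3CR1bright replicate 1 it was -0.75.

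The checkpoint kinases and related proteins that hold back anaphase until chromosomes are attached had positive differences for 3 of 3. Bub1b encodes BubR1, and its arrays were close within each subset, at 4.29 and 4.23 against 5.08 and 5.12. With 0.84 ± 0.18, a fold of 1.79, it had the smallest SE of the 9 mitosis genes at an unadjusted p under 0.05 (limma, adjusted p = 0.116). Bub1 stood at 3.51 and 3.58 in CX3CR1low, below the array median, and at 4.02 and 4.88 in CX3CR1bright macrophages. The difference of 0.91 ± 0.32 (limma, adjusted p = 0.226) became 0.47 without CX3CR1bright replicate 2. Ttk, the kinase MPS1, differed by 0.25 ± 0.22 with arrays that overlapped, and by 0.035 without CX3CR1low replicate 2. Of the mitotic motors, Kif11, which pushes the spindle poles apart, stood at 3.79 and 4.19 in CX3CR1low and at 4.75 and 5.04 in CX3CR1bright cells. That was 0.91 ± 0.23 (limma, adjusted p = 0.154). Kif23, a motor of the midzone needed for cytokinesis, stood at 5.28 and 5.77 against 6.36 and 6.46, or 0.89 ± 0.24 (limma, adjusted p = 0.156). Both motors lay above CX3CR1low on both CX3CR1bright arrays, as did 18.9% of tested genes. Kif20a, which acts in the midzone too, did not separate the subsets, at 4.36 and 4.74 against 4.75 and 4.44.

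The kinases and cyclins that drive mitosis were split. Cdk1, the main mitotic kinase, was at 4.82 and 5.47 in CX3CR1low and at 5.55 and 6.13 in CX3CR1bright macrophages, a difference of 0.69 ± 0.32 (limma, adjusted p = 0.325). The difference of Cdk1 was 0.37 without CX3CR1low replicate 1 and 0.40 without CX3CR1bright replicate 2. Its cyclin Ccna2 stood at 5.06 and 4.90 against 5.36 and 5.53, or 0.47 ± 0.19 (limma, adjusted p = 0.278). Neither overlapped between the subsets, and 18.9% of tested genes likewise lay above without overlap. Ccnb2, the other measured cyclin partner, was at 5.85 and 5.97 against 6.71 and 5.82, so only CX3CR1bright replicate 1 stood out. The difference of Ccnb2, 0.35 ± 0.33, was -0.092 without that array. Plk1, a kinase of mitotic entry and the spindle, was the lowest of the mitosis differences at -0.44 ± 0.32 (limma, adjusted p = 0.516). Its levels were 5.05 and 4.96 in CX3CR1low and 4.99 and 4.13 in CX3CR1bright cells, and the difference was -0.016 without CX3CR1bright replicate 2 and -0.87 without CX3CR1bright replicate 1. Aurora kinase genes Aurka and Aurkb differed by 0.32 ± 0.26 and -0.048 ± 0.20 with overlapping arrays, and Aurkb turned positive after quantile normalization and cyclic loess, at 0.018 and 0.068. Aurka was at 0.091 without CX3CR1bright replicate 1.

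The remaining mitosis genes differed by 0.16 to 0.63, none at an unadjusted p under 0.05 (limma). Nusap1, which bundles spindle microtubules, stood at 5.28 and 5.29 in CX3CR1low and at 5.58 and 6.25 in CX3CR1bright macrophages. Its difference of 0.63 ± 0.27 was 0.30 without CX3CR1bright replicate 2 and 0.97 without CX3CR1bright replicate 1. Cdc20, which switches on the anaphase-promoting complex, differed by 0.41 ± 0.26, and Tpx2, a spindle assembly factor, by 0.27 ± 0.19. Both lay above without overlap, as did 18.9% of tested genes. Without CX3CR1low replicate 1 the difference of Cdc20 was 0.11, and without CX3CR1low replicate 2 it was 0.70. Birc5, which encodes survivin, and Prc1, a midzone bundling protein, had overlapping arrays and differed by 0.34 ± 0.33 and 0.16 ± 0.39. Prc1 was at 4.37 on CX3CR1bright replicate 1 and at 5.49 on CX3CR1bright replicate 2, the widest gap within a subset among the mitosis genes, and its difference was -0.40 without the latter. With Birc5, the sign turned to -0.097 without CX3CR1low replicate 1.

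**Figure D3:**
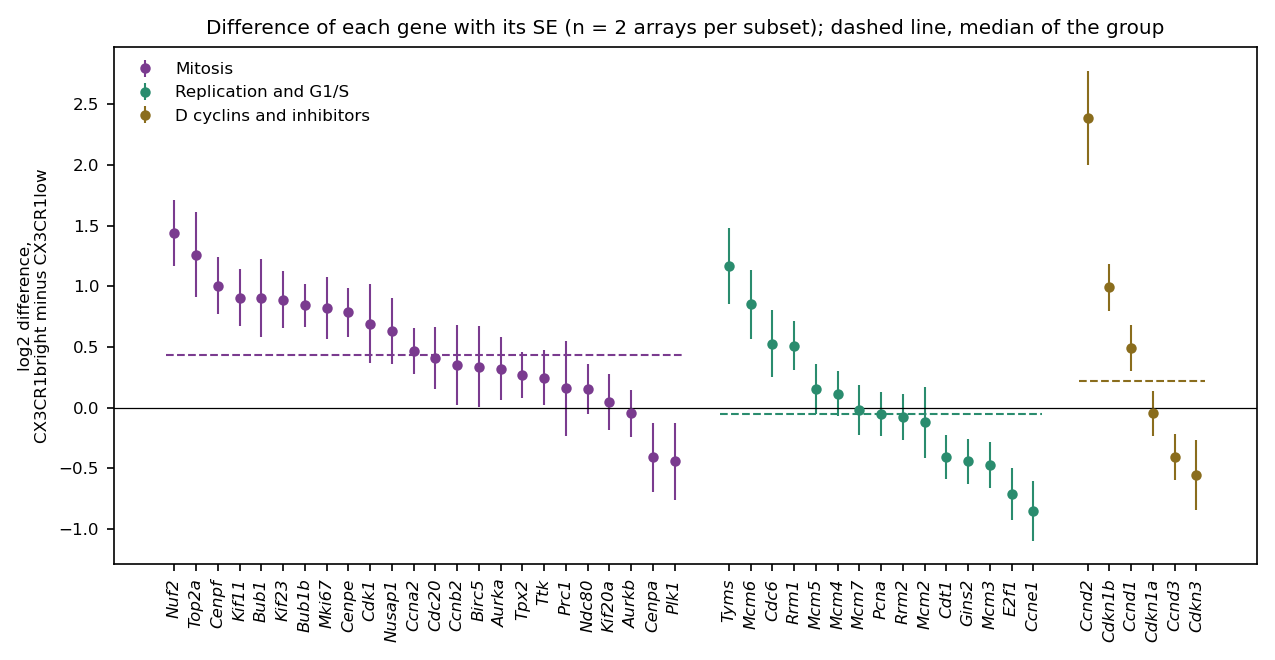
Log2 difference, CX3CR1bright minus CX3CR1low, of each measured gene with its SE as a bar, in 3 colours by role, and with the median of each group as a dashed line. The mitosis genes run from 1.44 for Nuf2 to -0.44 for Plk1 with a median of 0.44, and the replication genes from 1.17 for Tyms to -0.85 for Ccne1 with a median of -0.053.

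Among the replication genes, those of nucleotide supply included the largest positive difference. Tyms, thymidylate synthase, was at 5.04 and 4.23 in CX3CR1low and at 5.69 and 5.92 in CX3CR1bright macrophages. It differed by 1.17 ± 0.31, a fold of 2.24 (limma, adjusted p = 0.160), and the CX3CR1low replicates of Tyms were 0.81 apart. Without CX3CR1low replicate 2 the difference was 0.76. The annotation also lists a Tyms pseudogene, from which the probes may not be separate. Rrm1, the large subunit of ribonucleotide reductase, which makes the DNA building blocks, stood at 5.13 and 5.16 against 5.80 and 5.50. The difference was 0.51 ± 0.20 (limma, adjusted p = 0.266). The small subunit gene Rrm2 was at 4.39 and 4.48 against 4.25 and 4.47 and overlapped, with -0.076 ± 0.19. A second Rrm2 cluster, at 2.50 to 3.48 and below the array median, differed by 0.43.

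The 6 genes of the MCM2-7 helicase, which unwinds DNA at the fork, went both ways, with 3 positive and a median of 0.047. Mcm6 stood at 6.08 and 5.96 in CX3CR1low and at 6.52 and 7.23 in CX3CR1bright macrophages. Its difference was 0.85 ± 0.29, a fold of 1.81 (limma, adjusted p = 0.210), or 0.50 without CX3CR1bright replicate 2. Mcm3 stood on the other side, at 7.06 and 7.24 against 6.64 and 6.72, a difference of -0.47 ± 0.19 (limma, adjusted p = 0.267). Neither gene overlapped between the subsets, although their proteins sit in 1 complex. Of all tested genes, 18.9% lay above and 31.5% below without overlap. Mcm2, Mcm4, Mcm5 and Mcm7 overlapped and differed by -0.12 to 0.15. The sign of Mcm2 and Mcm7 turned after cyclic loess, at 0.0016 and 0.0021.

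Pcna, the sliding clamp of the DNA polymerases, stood at 10.41 and 10.43 in CX3CR1low and at 10.40 and 10.33 in CX3CR1bright cells. The difference of -0.053 ± 0.18 was smaller than its moderated SE. Both CX3CR1bright arrays lay narrowly below both CX3CR1low arrays, and 31.5% of tested genes likewise lay below without overlap. After quantile normalization and cyclic loess the difference of Pcna was 0.061 and 0.062. The genes that load the helicase or form part of its active form were mixed. Cdt1, which loads the helicase onto origins, was at 7.22 and 7.18 in CX3CR1low and at 6.76 and 6.82 in CX3CR1bright macrophages, or -0.41 ± 0.18 (limma, adjusted p = 0.306). Gins2, a subunit of the active helicase, stood at 5.87 and 5.83 against 5.32 and 5.50, or -0.44 ± 0.19 (limma, adjusted p = 0.291). Cdc6, the other loading factor, stood at 3.40 and 3.62 against 3.72 and 4.35, near the array median, with 0.53 ± 0.27, which was 0.21 without CX3CR1bright replicate 2 and 0.85 without CX3CR1bright replicate 1. The arrays of these 3 genes did not overlap, where 18.9% of tested genes lay above and 31.5% below without overlap.

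Of the replication genes, E2f1 and Ccne1 act at entry into S phase, and both had negative differences. E2f1, an activating E2F factor, was at 6.66 and 6.27 in CX3CR1low and at 5.75 and 5.76 in CX3CR1bright macrophages. It differed by -0.71 ± 0.22, or 1.64-fold higher in CX3CR1low cells (limma, adjusted p = 0.185). Ccne1, the cyclin E1 gene, stood at 4.72 and 4.18 in CX3CR1low and at 3.57 and 3.63, below the array median, in CX3CR1bright cells. The difference of -0.85 ± 0.24 (limma, adjusted p = 0.176) can be limited by background. These were the 2 replication genes lower at an unadjusted p under 0.05, and without CX3CR1low replicate 1 neither was.

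The D-type cyclins, which link growth signals to the cycle, differed from each other. Ccnd2 was at 6.05 and 4.95 in CX3CR1low and at 7.76 and 8.02 in CX3CR1bright macrophages. With 2.39 ± 0.39, a fold of 5.23, it had the largest difference of all 45 genes (limma, adjusted p = 0.0913). The adjusted p ranged from 0.0383 to 0.409 over 13 alternatives. It passed 0.05 with a stricter filter on dim genes (adjusted p = 0.0455) and with an intensity trend in the variance (adjusted p = 0.0383). Its CX3CR1low replicates were 1.10 apart, and both lay below both CX3CR1bright replicates. Ccnd1 stood at 6.81 and 6.69 against 7.14 and 7.34, or 0.49 ± 0.19 (limma, adjusted p = 0.264). Ccnd3 lay on the other side, at 6.04 and 6.23 against 5.69 and 5.77, or -0.41 ± 0.19 (limma, adjusted p = 0.327). None of the 3 cyclins overlapped between the subsets, where 18.9% of tested genes lay above and 31.5% below without overlap.

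The inhibitor genes were as varied. Cdkn1b, which encodes p27, a brake on the G1 kinases, stood at 5.48 and 5.42 in CX3CR1low and at 6.56 and 6.32 in CX3CR1bright macrophages. The difference was 0.99 ± 0.19, a fold of 1.99 (limma, adjusted p = 0.107, or 0.0568 to 0.495 over 13 alternatives). Thus a cyclin gene and an inhibitor gene had the first and second largest positive differences of the G1 group. Cdkn1a, which encodes p21, the inhibitor induced by p53, was at 12.14 and 12.23 against 12.19 and 12.09. Its arrays overlapped, and -0.048 ± 0.18 turned to 0.045 after quantile normalization and to 0.036 after cyclic loess. Cdkn3, a phosphatase that acts on cyclin-dependent kinases, stood at 4.80 and 5.49 against 4.73 and 4.46, or -0.55 ± 0.29 (limma, adjusted p = 0.373). Without CX3CR1low replicate 2 the difference of Cdkn3 was -0.21, and without CX3CR1low replicate 1 it was -0.90.

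**Figure D4:**
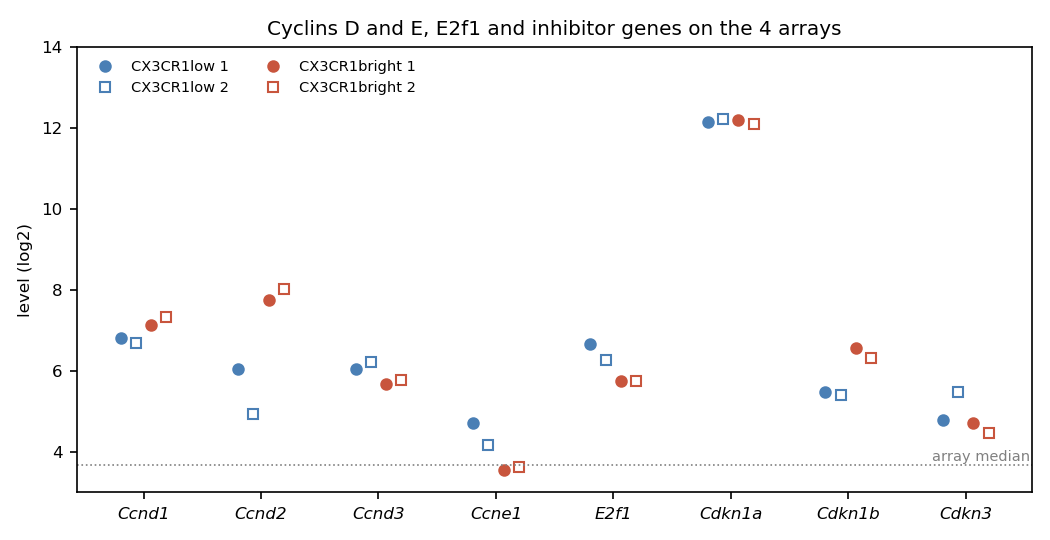
Log2 level of the cyclin D and E genes, E2f1 and the inhibitor genes on each of the 4 arrays; circles are replicate 1, open squares replicate 2, blue CX3CR1low and red CX3CR1bright, and the dotted line is the array median. Ccnd2 and Cdkn1b lie higher on both CX3CR1bright arrays, Ccne1 and E2f1 lie lower, and Cdkn1a stays between 12.09 and 12.23.

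Other genes of the cycle were taken from 3 further lists. Of 36 other mitosis genes 35 were measured, 29 of them with a positive difference, and the median was 0.50. Of the 33 tested, 8 were higher (24.2%, where 7.03% of all tested genes were) and 0 lower (where 11.8% were) at an unadjusted p under 0.05 (limma), and 0 passed the adjusted threshold. The 8 include Nek2 and Kif4, which passed the filter through the CX3CR1bright arrays alone. The median was 0.26 without CX3CR1bright replicate 2. The count of 8 depends on single arrays and varied with the array left out, as did the share of all tested genes. The smallest p-values were those of Cks2, a small subunit of cyclin-dependent kinases, at 5.16 and 5.37 against 6.73 and 6.42, or 1.31 ± 0.21 (limma, adjusted p = 0.0913). It passed 0.05 with the stricter filter (adjusted p = 0.0444) and with the intensity trend (adjusted p = 0.0496). The platform has 4 clusters for Cks2, of which the brightest is given. Cks1b, its paralog, differed by 0.77 ± 0.20, Spc24, of the NDC80 complex, by 0.94 ± 0.21, and Hmgb2, a chromatin protein, by 0.60 ± 0.18. The kinase gene Nek2 differed by 0.84 ± 0.18, but its CX3CR1low levels of 3.23 and 3.24 were below the array median, so this value can be limited by background. The regulators Foxm1 and Mybl2 had overlapping arrays, with -0.10 ± 0.21 and 0.057 ± 0.23, and Foxm1 turned to 0.0026 after cyclic loess.

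Of 29 other replication genes 26 were measured, 19 with a positive difference and a median of 0.20, and of the 24 tested 0 were at an unadjusted p under 0.05 (limma). The median was 0.083 without CX3CR1low replicate 1 and 0.12 without CX3CR1bright replicate 2. The count of 0 changed with some arrays left out, where 1 subset rests on 1 array. The differences ran from -0.42 to 0.70. Of 36 other control genes 34 were measured, 13 with a positive difference and a median of -0.087, which was 0.010 after quantile normalization and 0.031 after cyclic loess. At an unadjusted p under 0.05 (limma) 3 were higher and 4 lower of 33 tested, or 9.09% and 12.1%, near the 7.03% and 11.8% of all tested genes. The higher ones were E2f2, an activating E2F factor, at 3.94 and 4.02 against 5.07 and 4.83, or 0.97 ± 0.19 (limma, adjusted p = 0.108), the kinase inhibitor gene Cdkn2b at 0.62 ± 0.21 and the repressor gene E2f8 at 0.60 ± 0.23. E2f2 and E2f1, both activators, thus differed in opposite directions. The lower ones were Wee1, the kinase that holds back Cdk1, at -0.88 ± 0.24, Cdk4, the partner of D-type cyclins, at -0.62 ± 0.20, Mdm2, which degrades p53, at -0.57 ± 0.18, and the repressor gene E2f5 at -0.53 ± 0.20. The counts of 3 and 4 depend on single arrays and varied with the array left out, as did the shares of all tested genes. The 4 lower ones became 2 after quantile normalization and 1 after cyclic loess, where 9.56% and 8.48% of all tested genes were lower.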

How the data were processed

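RNA of 4 sorted samples was hybridised to Affymetrix whole-transcript arrays after amplification with the WT Pico reagents, per the labels' protocols. The deposited values are log2 levels. The authors used RMA and Expression Console 1.4, as named in the submitters' processing notes. A genome build is not given in the sources used here. Probe intensities were not used here, so background correction could not be varied.

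Of 34390 transcript clusters, 23521 carried 1 gene symbol, 1814 several and 9055 none. By Entrez identifier 23328 single-symbol clusters matched RefSeq (GRCm38.p6, for names and promoter sequences), with 0 symbols updated. The cluster with the highest mean stood for a gene, which left 22180 genes, and 13133 were tested, with at least 2 arrays above their own median. Promoter windows of 37 of the 45 measured members were found. For the comparison of subsets, R 4.3.3 and limma 3.58.1 were used (lmFit, eBayes, two-sided, Benjamini-Hochberg over all tested genes, threshold 0.05). Each SE is limma's moderated SE, which draws on the spread of all tested genes as well as the gene's own. Precision is limited by the 2 arrays per subset. The p-values reflect how pools of mice vary, not single animals. The procedure was tested on simulated data.

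Members, lists and tests were chosen with earlier results of these data known. Values on every array are given for Mki67, Top2a, Pcna, the G1 group, members at an unadjusted p under 0.05, the 3 with the highest mean level among mitosis and replication genes, and the extremes of each role group. Other members given values were chosen after their values were seen. Of the other lists, up to 5 genes per direction with the smallest p are named, and Foxm1 and Mybl2 were added after their values were seen. Alternatives varied the filter, the scaling, the clusters, the variance model, the membership of Ccna2 and Cdkn3, a replicate block and the arrays left out.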

Additional observations from a re-analysis of the deposited data

How the results depend on the processing

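Of 571 differences of the 45 measured genes under alternatives, 546 kept their direction and side of the threshold, 23, of 11 genes, changed sign and 2, both of Ccnd2, passed it. Of 178 such values of the 14 other cycle genes given with values, 171 kept both, 5, of Foxm1 and Mybl2, changed sign and 2, both of Cks2, passed the threshold. In both sets the filter, the variance model and the replicate block leave a difference unchanged, so there only the side of the threshold could change. The mean of a gene's clusters could move only 1 of the 45 genes. These totals therefore do not measure how stable the signs are. The count of genes past an adjusted p of 0.05 (limma), 18, depended most on the settings. It was 1 without a filter, with quantile normalization or with a robust prior, 224 with a stricter filter, 33 after cyclic loess and 308 with an intensity trend. With the replicate number as a block it was 0, with 2637 genes at an unadjusted p under 0.05. Same-numbered replicates correlated at 0.155 in their deviations over 2 pairs, and nothing in the labels ties a number to a litter. With the block 14 of the 45 members were higher and 2 lower at an unadjusted p under 0.05 (limma), where 7.64% and 12.4% of all tested genes were. Leaving out an array gave 0 to 154 genes, with 154 only without CX3CR1bright replicate 1.

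The median difference of the mitosis members, 0.44, was 0.48 to 0.64 with an array left out, and 0.41 with Cdkn3 among them. That of the replication members, -0.053, was -0.064 to 0.032 with an array left out, and positive only without CX3CR1bright replicate 1. It was -0.021 with the mean of a gene's clusters, 0.0021 after cyclic loess and -0.037 with Ccna2 among them. Ccnb2 ranged from -0.092 without CX3CR1bright replicate 1 to 0.80 without CX3CR1bright replicate 2. Cdkn1a was 0.045 after quantile normalization and 0.036 after cyclic loess, and ranged from -0.097 to 0.0011 with an array left out, positive without CX3CR1low replicate 2 and, at 0.00056, without CX3CR1bright replicate 2. Pcna was 0.061 after quantile normalization and 0.062 after cyclic loess. Aurkb was 0.018 after quantile normalization and 0.068 after cyclic loess, and after the latter Mcm2 was 0.0016, Mcm7 0.0021 and Foxm1 0.0026. With an array left out, the sign also turned for genes with small or uneven differences. Those ranges were -0.16 to 0.068 for Aurkb, -0.097 to 0.77 for Birc5, -0.15 to 0.24 for Kif20a, -0.0015 to 0.31 for Ndc80 and -0.40 to 0.72 for Prc1. They were -0.45 to 0.20 for Mcm2, -0.16 to 0.12 for Mcm7, -0.18 to 0.032 for Rrm2, -0.25 to 0.052 for Foxm1 and -0.14 to 0.25 for Mybl2. The cause of these changes was not tested. Levels near or below the array median can limit the folds of Nuf2, Cenpf, Bub1, Cdc6, Ccne1, Nek2 and Kif4, which was not tested.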
